A study of Caenorhabditis elegans with 2 samples.

Results

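Small nucleolar RNAs (snoRNAs) are short non-coding RNAs that guide chemical modification of ribosomal and spliceosomal RNA. Box C/D snoRNAs carry a C box near the 5′ end and a D box near the 3′ end and direct 2′-O-methylation, whereas box H/ACA snoRNAs end in an ACA box and direct pseudouridylation. Many snoRNA genes of animals lie inside introns of protein-coding host genes, and their RNA is then trimmed from the host transcript or made from a promoter of its own. The ChIP-seq data described here were searched for MBF-1 signal at such nested snoRNA genes. The genes were all nuclear genes that Ensembl release 115 gives the biotype snoRNA and that lay wholly within the span of a protein-coding gene, on WBcel235 (ce11). There were 216 of them among 346 nuclear snoRNA genes and 46890 nuclear genes. The other 130 snoRNA genes lay outside coding genes.

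MBF-1 belongs to the multiprotein bridging factors, coactivators that link DNA-binding activators to the TATA-binding protein. Chromatin came from whole L2 larvae of strain OP427, of mixed sex, which stably express MBF-1 fused at the C-terminal end to GFP and FLAG. Every sample carries the unc-119(ed3) allele on chromosome III and the transgene wgIs427, and the state of the native mbf-1 gene is not given in the labels. The 2 biological replicates form 1 group with no comparison strain, stage or tissue, and weak signal in all cells cannot be told apart from strong signal in a few.

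For each gene the measure was the highest signal, on the authors' own scale, among candidate regions with their summit within 500 bp of the gene's start. The pooled list held 30000 regions with a median signal of 20.5, and the replicate 1 and replicate 2 lists held 19135 and 23203 regions. These lists contain background by design, so a region was not read as binding. The 132 regions that passed the authors' threshold on the irreproducible discovery rate (IDR) had pooled signals of 55.6 or more. The read depth behind the regions is unknown here. Because there is 1 group and genes are not replicates, no difference between gene sets was tested, and the main counts are given beside the same share over all nuclear genes.

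The sequences of the 8 nested snoRNA genes with pooled signals over 40 are shown because the highest values rest on them, with W03C9.9, the strongest snoRNA gene outside coding genes, for comparison. They were read from the RefSeq genome of WBcel235 at the Ensembl coordinates, 5′ to 3′ on the gene's strand. Capitals mark TGATGA, the core of the C box, within the first 25 bases, the last CTGA, the D box, within the last 25 bases, and GTTCGANNC, the core of the B box of RNA polymerase III promoters.
C51F7.3: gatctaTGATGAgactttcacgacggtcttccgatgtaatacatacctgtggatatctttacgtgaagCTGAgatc
C51F7.4: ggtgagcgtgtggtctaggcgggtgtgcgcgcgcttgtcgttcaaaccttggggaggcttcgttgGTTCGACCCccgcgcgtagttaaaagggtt
T03F7.8: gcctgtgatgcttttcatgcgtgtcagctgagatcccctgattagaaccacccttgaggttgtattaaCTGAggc
ZK994.7: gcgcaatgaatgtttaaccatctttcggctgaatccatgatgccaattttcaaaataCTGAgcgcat
T06D8.11: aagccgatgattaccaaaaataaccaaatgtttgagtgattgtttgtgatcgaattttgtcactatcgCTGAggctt
B0334.12: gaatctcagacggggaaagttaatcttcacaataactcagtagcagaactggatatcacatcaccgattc
C08D8.3: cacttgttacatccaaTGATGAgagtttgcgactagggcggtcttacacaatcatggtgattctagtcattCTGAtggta
C16D9.11: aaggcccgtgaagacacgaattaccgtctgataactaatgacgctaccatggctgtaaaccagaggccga
W03C9.9: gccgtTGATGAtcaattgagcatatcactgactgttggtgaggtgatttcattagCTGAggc
C51F7.3, C08D8.3 and W03C9.9 held both the C and the D box letters. T03F7.8, ZK994.7 and T06D8.11 held the D box letters only, and C51F7.4 held neither but had the B box letters from base 66 of its 95. B0334.12 and C16D9.11 held none of these letters, which says only that they are not in these windows.

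These letters were also used to check the biotype. Read on the gene's strand, TGATGA lay in the first 25 bases of 13 of the 216 nested genes (6.02%), against 1 of 216 (0.463%) windows of the same lengths taken 1000 bp past each gene. CTGA lay in the last 25 bases of 53 genes (24.5%), against 16 windows (7.41%). ACA followed by 3 final bases was found in 48 genes (22.2%), against 8 windows (3.70%). Most nested genes had no exact match to a pair of C and D boxes (10 genes had one), so the letters describe the sequences only. Grouped by them, 6 of the 10 genes with both boxes had a pooled region within 500 bp. Of the 48 with the ACA letters 11 (22.9%) did, and of the 158 with neither 51 (32.3%). The share of all nuclear genes was 35.6%, and the difference between groups was not tested.

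The 216 genes had 192 different hosts, 24 of which held more than 1. They ranged from 54 to 325 bp in length with a median of 127 bp. Of them, 183 were on the same strand as a host and 33 on the opposite strand, while 170 were wholly intronic and 46 touched an annotated exon of the host. The start of the snoRNA gene was within 500 bp of the host's own start for 38, and the median distance between those starts was 2040 bp. Only T19C4.11 had an exact second copy in the genome.

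The share of nested snoRNA genes with any region was near or below that of all nuclear genes, a background that piRNA genes raise. The shares with regions in both replicates or of high signal were above the background. Of the 216 genes, 68 (31.5%) had a pooled region within 500 bp, against 35.6% of all nuclear genes and 37.7% of the 10058 other non-coding genes nested in coding genes. In replicate 1 the count was 53 (24.5%, against 24.2% of all genes), and in replicate 2 it was 59 (27.3%, against 28.6%). Regions in both replicates lay at 37 genes (17.1%, against 10.9%). A region among the 3000 of highest signal in the pooled list (30.3 or more) lay at 23 genes (10.6%, against 5.07%). A region at or above the lowest IDR signal lay at 4 genes (1.85%, against 0.215%), and among the other nested non-coding genes at 3 of 10058 (0.0298%), of which T03F7.14 shares its region with a nested snoRNA gene. Other classes of small RNA gene nested in coding genes were not all alike. A pooled region lay at 2683 of 5878 nested piRNA genes (45.6%), on 930 different regions. Outside coding genes it lay at 4613 of 9485 piRNA genes (48.6%). These genes thus raise both background shares with a pooled region, and the shares without them were not computed. At IDR level there was 1 piRNA gene, outside coding genes, so there they lower the background. Nested miRNA genes had a pooled region at 28 of 106 (26.4%). Nested tRNA genes had a pooled region at 133 of 290 (45.9%), regions in both replicates at 54 (18.6%) and one of the 3000 highest regions at 40 (13.8%), each share above that of nested snoRNA genes, and none was at IDR level. Of 63 nested snRNA genes 18 (28.6%) had a pooled region and 1 (1.59%) was at IDR level, near the share of nested snoRNA genes. Pooled signals at the 68 genes ran from 15.8 to 79.98 with a median of 24.995, while the median over the 16677 genes with a region was 21.5.

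The remaining genes were accounted for as follows. No list had a region near 132 of the 216 genes, and 16 had one in a replicate list but not in the pooled list. Of the 68 with a pooled region, 36 also had one in both replicates, 11 in replicate 1 alone, 12 in replicate 2 alone and 9 in neither. Neighbouring genes shared regions, so that the 68 genes rested on 65 different pooled regions. A gene without a region in a list is not shown to lack signal, since alignments were not analysed here.

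**Figure D1:**
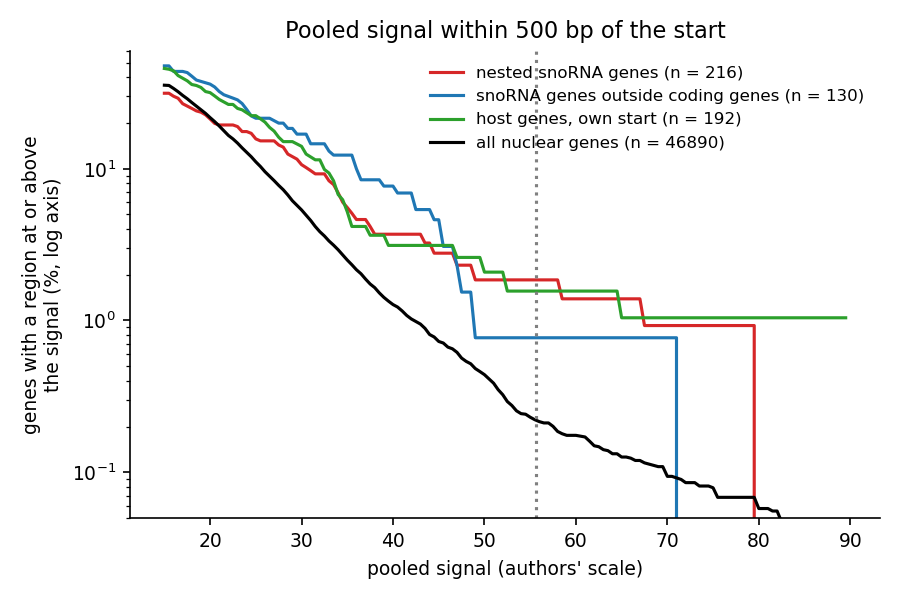
Share of genes (%, log axis) with a pooled region at or above each signal (authors' scale) within 500 bp of the start, for nested snoRNA genes, snoRNA genes outside coding genes, host genes and all nuclear genes; the dotted line is the lowest IDR signal of 55.6. The nested curve begins at 31.5%, below the 35.6% of all nuclear genes, and lies above it at high signals; 2 hosts lie beyond the right end.

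All 4 nested genes at IDR level were on chromosome V, were shorter than 100 bp and started over 1000 bp from the start of their host. C51F7.3 (12303708 to 12303783) and C51F7.4 (12303599 to 12303693) are neighbours on the plus strand, 14 bp apart, in frm-7, a gene for a FERM domain protein on the same strand. They shared a region at 12303551 to 12303930, whose summit was 33 bp from the start of C51F7.3 and 142 bp from that of C51F7.4. Its pooled signal was 79.98, rank 59 of 30000, with 20.5 in replicate 1 and 51.6 in replicate 2. C51F7.3 is intronic, while C51F7.4 touches an annotated exon of frm-7. The start of frm-7, 1224 bp from C51F7.3, had no region in the pooled list or in replicate 1 and one of 11.5 in replicate 2.

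T03F7.8 (chromosome V, 11314258 to 11314332) lies in an intron of cutl-18, a gene for a cuticlin-like protein, on the opposite strand. Its pooled signal was 67.0, with 22.9 in replicate 1 and 43.4 in replicate 2, and the summit was 52 bp upstream of its start. A non-coding RNA gene, T03F7.14, overlaps it on the other strand and starts 110 bp from that summit, so the region cannot be given to either gene alone. The start of cutl-18, 2643 bp away, had a pooled signal of 18.6.

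ZK994.7 (chromosome V, 8500579 to 8500645) lies in an intron of pxn-1, which encodes a peroxidasin, an enzyme of the extracellular matrix. Its pooled signal was 58.5, and the replicates gave 29.8 and 34.8, the closest pair of replicate values among these 4 genes. The summit was 113 bp upstream of its start, and no other gene started within 500 bp. The nearest tRNA gene, WBGene00023221, started 943 bp away. No list had a region within 500 bp of the start of pxn-1.

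Below the IDR level, 4 genes had pooled signals over 40. T06D8.11 (chromosome II, 11224182 to 11224258, in plpr-1) had a pooled signal of 48.8, with 11.8 in replicate 1 and 39.0 in replicate 2. The non-coding RNA gene T06D8.17 started nearer to that summit, at 11 bp against 36 bp. B0334.12 (chromosome II, 11484683 to 11484752) lies against the strand of twk-5, a potassium channel gene, and had 46.8, 25.3 and 20.7 in the same order. Its region was within 500 bp of the start of twk-5 as well, so the host and the snoRNA gene could not be told apart.

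C08D8.3 (chromosome V, 8349108 to 8349187, in C08D8.1) had a pooled signal of 44.1, with 16.2 in replicate 1 and 33.5 in replicate 2. C16D9.11 (chromosome V, 8228900 to 8228969) lies in an intron of rol-3, a gene for a receptor tyrosine kinase-like protein, and had 43.5, 22.2 and 16.2. The hosts' own starts had lower pooled signals, 21.3 and 20.4. Both snoRNA genes are named for their high signal, so this order follows in part from the choice of genes.

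The other 12 of the 20 highest had pooled signals from 32.7 at Y37E3.20 to 37.8 at D1046.6. D1046.6 lies in cfim-2, which encodes a cleavage factor of mRNA 3′ ends, with 15.3 in replicate 1 and 24.9 in replicate 2. C14C10.8 (in ril-2), F29G9.19 (in fos-1, a bZIP transcription factor gene) and F26A10.28 (in F26A10.2) had 37.2, 35.7 and 35.2. F54E7.10, T01C2.6, F39B2.14 and JC8.15 shared their region with the start of their hosts rps-12, acy-4 (an adenylyl cyclase gene), tmem-107 and tag-115, at 34.4, 34.7, 33.6 and 33.5. The summit near JC8.15 was nearest the start of tag-115, and that near F54E7.10 was nearest the start of the coding gene ska-3. R166.7 in mnk-1, C41C4.16 in ulp-4 and F54C9.12 in iff-2 had 34.3, 33.2 and 32.8. Y37E3.20 lies in pcyt-2.1. Of these 12, 11 had a region in both replicates and JC8.15 had none in replicate 1.

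**Figure D2:**
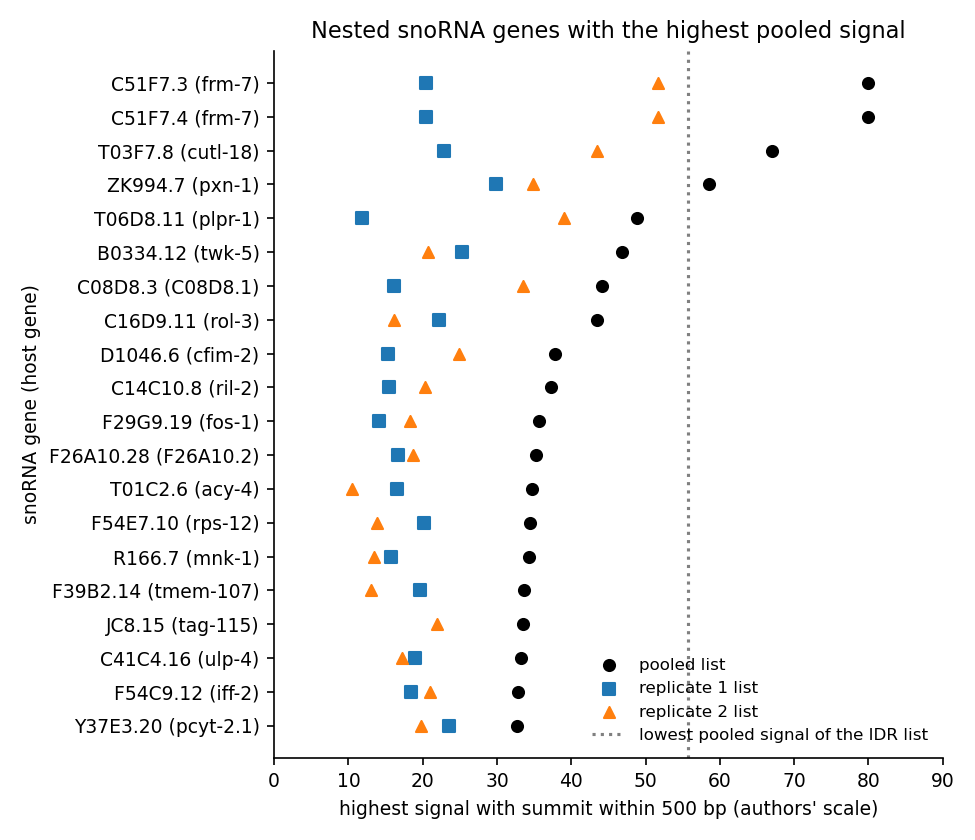
Highest signal (authors' scale) with the summit within 500 bp of the start, for the 20 nested snoRNA genes of highest pooled signal, in the pooled list (circles), replicate 1 (squares) and replicate 2 (triangles), with the host gene in brackets. The first 5 genes had more signal in replicate 2 than in replicate 1, and only the first 4 pass the dotted line at 55.6.

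The replicates ranked the nested genes differently. Over the 37 genes with regions in both replicates, the 2 signals had a Spearman rho of 0.144 and a Pearson r of 0.218. Without the 3 genes of highest pooled signal they were 0.00443 and 0.0794 (n = 34). These genes share the same 2 libraries and some share a region, so the values are descriptive, and for all 5120 nuclear genes with both regions rho was 0.210 and r was 0.551. Replicate 2 was higher at 18 genes and replicate 1 at 19, with a median ratio of replicate 2 to replicate 1 of 0.949.

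Of the 8 genes with pooled signals over 40, 6 were higher in replicate 2, among them C51F7.3 and C51F7.4, which share a region. B0334.12 and C16D9.11 were higher in replicate 1. The largest ratios of replicate 2 to replicate 1 were at T06D8.11 (3.31), C51F7.3 and C51F7.4 (2.52 at their shared region), C08D8.3 (2.07) and C27H5.10 in pdl-1 (2.04). The region at C51F7.3 ranked 36 in replicate 2 and 1479 in replicate 1, and that at T06D8.11 ranked 66 and 15378. In the other direction the lowest ratios were 0.441 at Y38F2AR.14, 0.559 at smy-2, 0.631 at C04G6.12, 0.636 at T01C2.6 and 0.664 at F39B2.14. Of the nested genes, 6 (2.78%, against 0.264% of all nuclear genes) had a region among the 132 of highest signal in replicate 2. In replicate 1 there was 1 (0.463%, against 0.168%). The 6 were C51F7.3 and C51F7.4, at their shared region, T03F7.8, T06D8.11, ZK994.7 and C08D8.3.

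The gene in replicate 1, C06A1.9 in cdc-48.1, was not among those 6. The replicate 1 region near C06A1.9 (chromosome II, 10562952 to 10563064) had a signal of 76.0, while the nearest pooled summit, with a signal of 166, was 515 bp away, just past the limit. cdc-48.1, which encodes the AAA ATPase p97, starts 343 bp from C06A1.9 and had that pooled region at its own start. The next outside the limit were a snoRNA gene in jac-1 (515 bp, 24.7) and Y65B4A.10 (531 bp, 21.02). The last inside were a snoRNA gene in pkd-2 (478 bp, 20.4), B0379.12 (444 bp, 18.8) and D1007.20 (425 bp, 29.9).

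Among snoRNA genes under 100 bp the share with a region was higher than among longer ones. Of the 61 nested genes under 100 bp, 33 (54.1%) had a pooled region, and of the 155 longer ones 35 (22.6%) did. The share of all nuclear genes was 35.6%. Among the 3000 highest regions the counts were 12 (19.7%) and 11 (7.10%), against 5.07% of all nuclear genes. With regions in both replicates they were 19 (31.1%) and 18 (11.6%), against 10.9%. In both counts the longer genes were nearer to that share than the short ones were. Outside coding genes, 23 of 32 (71.9%) short genes and 39 of 98 (39.8%) longer ones had a pooled region. Split more finely, the nested share was 60.6% under 80 bp, 46.4% at 80 to 99 bp, 24.6% from 100 bp to under 130 bp and 21.4% from 130 bp. Outside coding genes the same classes had a region at 18 of 20, 5 of 12, 11 of 22 and 28 of 76 genes, so the share there did not fall at each step, and only the class under 80 bp stood above that of 100 to under 130 bp. The length limits were chosen after the values were seen, and the difference was not tested. The median length was 102 bp with a pooled region and 131 bp without. Median G+C from 500 bp before to 500 bp after the start was 38.1% with a region and 39.2% without.

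**Figure D3:**
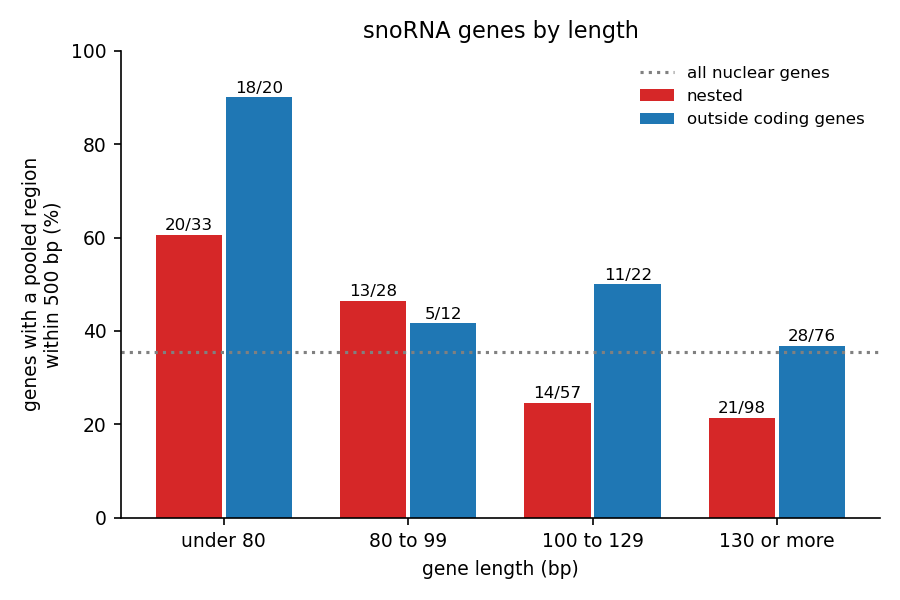
Share of snoRNA genes with a pooled region within 500 bp of the start by gene length, for nested genes and genes outside coding genes, with the number of genes with a region over all genes of that length. The nested share falls from 60.6% under 80 bp to 21.4% at 130 bp or more; the dotted line is the 35.6% of all nuclear genes.

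The share with a region also varied with strand and chromosome. Of the 33 genes on the opposite strand to the host 15 (45.5%) had a pooled region, against 53 of 183 (29.0%) on the same strand. Their medians went the other way, at 23.2 and 28.4, as did the shares near one of the 3000 highest regions, with 2 (6.06%) and 21 (11.5%). Among the short genes the counts were 11 of 13 and 22 of 48, and among the longer ones 4 of 20 and 31 of 135. On chromosome V 18 of 39 nested genes (46.2%) had a pooled region, against 27.99% of all genes of that chromosome, and 11 (28.2%, against 3.66%) were near one of the 3000 highest regions. Among its 15 short genes 11 had a region, with a median of 43.5, while 22 of 46 short genes elsewhere did, with a median of 24.5. Chromosome III had the lowest share, 7 of 44 (15.9%), against 33.7% of all its genes. On X, 4 of 10 nested genes had a pooled region, against 29.8% of all genes of that chromosome, and the 4 genes shared 3 regions. Wholly intronic genes (31.8%) and those that touched a host exon (30.4%) had similar shares.

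The genes of high signal had their summits close to the snoRNA start more often than the others. Of the 68 genes, 39 (57.4%) had the summit within 200 bp of the start and 23 (33.8%) within 100 bp. Counted once each, 38 of the 65 regions (58.5%) had their summit within 200 bp of a nested start. Over all nuclear genes with a region the shares were 41.9% and 21.5%, and summits spread evenly over the window would give 40.1% within 200 bp. Of the 23 genes near one of the 3000 highest regions, 11 (47.8%) had the summit within 100 bp, against 24.5% of the 2378 such nuclear genes. Of the other 45 genes 12 (26.7%) did, and 22 (48.9%) had it within 200 bp, nearer to the shares of all nuclear genes. The summit was upstream of the start for 36 genes and downstream for 32. For 54 of the 68 genes no annotated start of another gene was nearer to the summit, while a coding gene was nearest for 5, another snoRNA gene for 3 and another non-coding gene for 6.

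**Figure D4:**
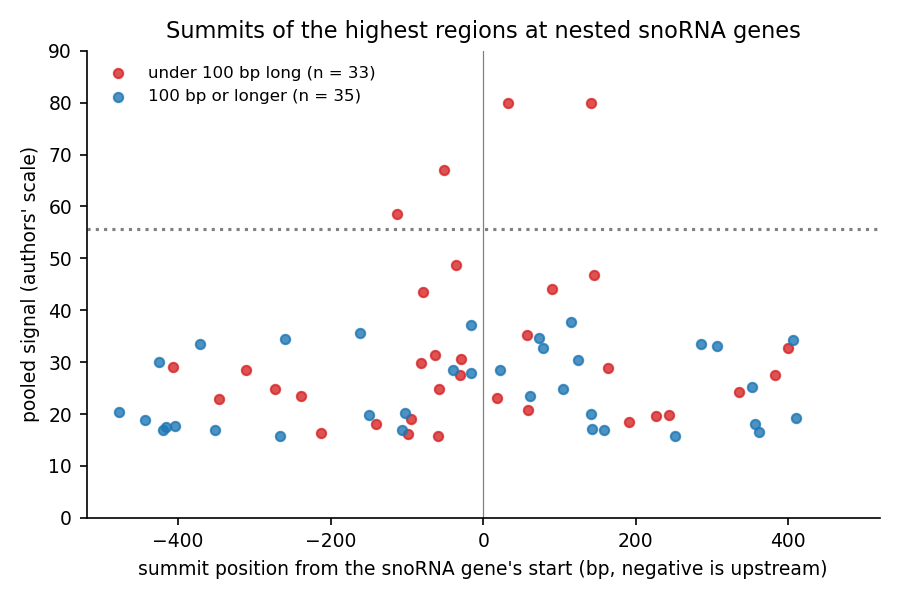
Position of the summit of the highest pooled region from the start of the nested snoRNA gene (bp, negative is upstream) against its pooled signal (authors' scale), by gene length. The signals above 40 lie within 150 bp of the start and belong to genes under 100 bp; the dotted line is the lowest IDR signal of 55.6.

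Within 500 bp, the share with a pooled region was higher at the hosts' own starts than at the nested genes. Within 200 bp the shares were close, at 34 hosts (17.7%) and 40 nested genes (18.5%). At IDR level there were 4 nested genes (1.85%), or 3 (1.39%) with each region counted once, near the share of hosts given below. Of the 192 hosts, 88 (45.8%) had a pooled region within 500 bp of their start, against 31.0% of all protein-coding genes. The counts were 55 hosts in replicate 1 (28.6%, against 20.1%), 69 in replicate 2 (35.9%, against 25.5%) and 36 in both (18.8%, against 8.84%). One of the 3000 highest regions lay at 26 (13.5%, against 4.6%), and 3 (1.56%, against 0.295%) were at IDR level. Those 3 were cdc-48.1 with a pooled signal of 166, the ribosomal protein gene rpl-15 with 153 and wwp-1, a ubiquitin ligase gene, with 65.0. None of their 5 nested snoRNA genes had a pooled region within 500 bp, and only C06A1.9 had one in a replicate.

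A host's start was taken as the 5′ end of its longest annotated span. Both starts had a pooled region for 39 of the 216 nested genes, the snoRNA start alone for 29, the host start alone for 63 and neither for 85. In 10 of the 39 the 2 starts shared the same region. In the other 29 the snoRNA start was higher in 19, with medians of 24.8 at the snoRNA gene and 21.3 at the host. The 58 genes with a region that was not also the host's had a median of 24.5, and all 4 genes at IDR level were among them. Of the 149 genes that started over 1000 bp from that end, 51 (34.2%) had a pooled region, against 9 of the 38 (23.7%) within 500 bp of it. Some hosts have further annotated transcript starts inside the gene, and these lay near more of the regions. Of the 68 genes, 17 had a summit within 500 bp of at least 1 annotated transcript start of the host, among them D1046.6, F55A11.10 and Y37E3.20. The other 51 had a median of 23.4 and held all 4 genes at IDR level. By transcript starts the shares with a region were close, at 42 of 128 (32.8%) over 1000 bp away and 18 of 59 (30.5%) within 500 bp. With any transcript start, 107 of the 192 hosts had a pooled region in place of 88.

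**Figure D5:**
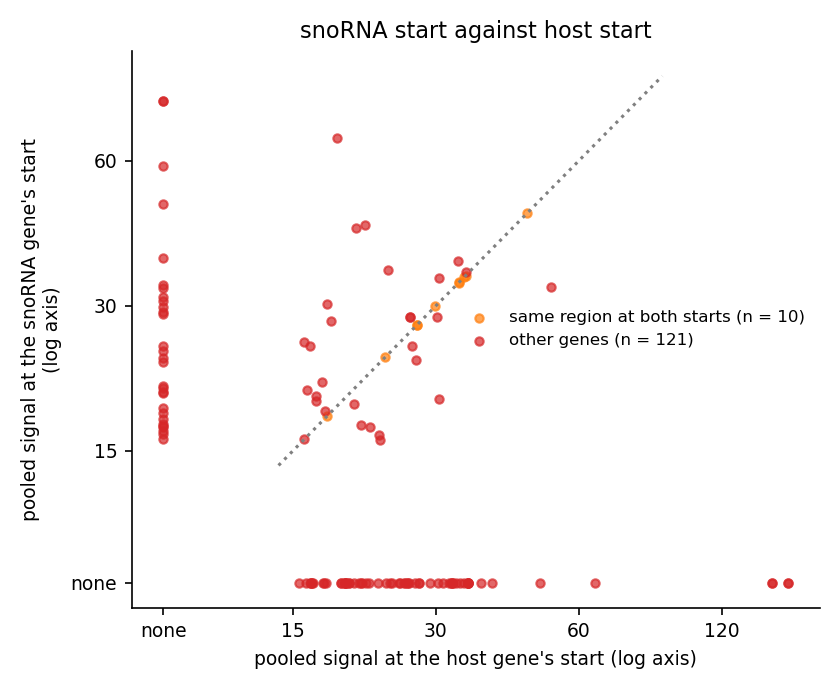
Pooled signal (authors' scale, log axes) at the start of each nested snoRNA gene against that at the start of its host, for the genes with a region at either; "none", at an arbitrary place on each axis, marks no region within 500 bp, and the dotted line marks equal values. Points on the line are the 10 genes that share a region with the host, and the highest snoRNA values lie where the host has none or a low signal.

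Host classes were taken by gene symbol, for ribosomal proteins rpl-, rps- or rla-, so hosts under other names are not in them. Of 19 snoRNA genes in ribosomal protein genes so named, 4 (21.1%) had a pooled region, against 31.5% of all nested genes. Their median was 26.7, and all 4 regions were also those of the host's start. They were F54E7.10 in rps-12 (34.4), D1007.20 in rpl-24.1 (29.9), B0041.9 in rpl-4 (23.5) and F28C6.11 in rpl-26 (17.7). The pair in rpl-15, K11H12.12 and K11H12.13, had no region in any list within 500 bp, while the region at the host start had a signal of 153. Of 5 genes in translation factor hosts only F54C9.12 in iff-2 had one, and the single gene in a chaperone host, F26D10.24 in hsp-1, had none, beside 49.7 at the start of hsp-1.

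The 130 snoRNA genes outside coding genes gave a higher share of regions than the nested ones at a similar signal. A pooled region lay at 62 (47.7%, against 35.6% of all nuclear genes), with a median of 24.3 against 24.995 at nested genes. Regions in both replicates lay at 31 (23.8%, against 10.9%). One of the 3000 highest regions lay at 22 (16.9%, against 5.07%), and 1 gene (0.769%, against 0.215%) was at IDR level. It was W03C9.9 (chromosome II, 11960898 to 11960959), 62 bp long, with a pooled signal of 71.1 and replicate signals of 37.8 and 30.7. Y39G10AR.24 followed with 48.8, 19.7 and 27.7, and F09G2.14 with 47.0, 14.1 and 31.8. Summits within 200 bp of the start made up 58.1% of the 62, against 41.9% over all nuclear genes with a region.

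Genes for proteins that bind, assemble or release snoRNAs were read as the other side of the pathway. Of 13 such genes 6 (46.2%) had a pooled region at the start, against 31.0% of all protein-coding genes, and the medians were 26.6 and 21.2. The highest were ruvb-2 and ruvb-1, ATPases that assemble snoRNA-protein particles, at 35.3 and 30.7. Y48A6B.3, the NHP2 homologue of the H/ACA particle, had 27.7, snu-13, a core protein of the C/D particle, 25.6, nol-58, another, 16.4, and nola-3, the NOP10 homologue, 15.9. The starts of fib-1 (fibrillarin, the C/D methyltransferase), nol-56, dkc-1 (dyskerin), dbr-1 (the lariat debranching enzyme), dao-5, xrn-2 and garr-1 had no pooled region. nol-56 is itself the host with the most snoRNA genes, 4, and none of these had a pooled region. Of the 4, 1 had a region in replicate 1 (14.1), 1 had a region in replicate 2 (13.3) and 2 had none in any list.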

How the data were processed

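MBF-1 ChIP-seq regions from 2 biological replicates of whole L2 larvae were used, 1 group, with replicate numbers from the labels. The authors deposited narrowPeak lists of candidate regions per replicate and for both pooled, called against a control alignment, and an IDR-thresholded list, per the labels' file lists. The deposited signal value of each region (column 7) is the authors' own, on a scale that is not stated. Aligner, peak caller and IDR threshold: not given in the sources used here. Read depth is unknown. Column 9 was not used, nor were lists in ce10 coordinates.

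Coordinates are ce11, from 1. Gene starts are the 5′ ends of Ensembl release 115 genes, and sequences were read from the RefSeq genome of WBcel235. Computation used Python 3.11.15, pandas 2.3.3 and scipy 1.17.1, and the lookup was tested on simulated data. Genes named are the 20 nested genes of highest signal with hosts, the 3 highest outside, the 5 most extreme replicate ratios in each direction, those at the distance limit and members of the host and snoRNA-protein lists. The members and lists were chosen with earlier results of these data known. The length limits, the count among the 3000 highest regions, the 25-base limits of the box search, the summit distances, the splits by chromosome and strand and the other gene sets were chosen after values were seen. Alternatives were other distances, overlap with the gene, each replicate alone, the 10000 regions of highest signal and subsets of genes. No p-value was computed: there is no comparison group.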

Additional observations from a re-analysis of the deposited data

How the results depend on the processing

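The 4 genes at IDR level kept that count with 200 bp, with overlap of the gene, with the 10000 highest regions, over 1000 bp from host starts and without regions shared with the host start. Apart from overlap, these settings could not change the count, given the signals, summits and host distances described above. They are therefore no separate check. The count was 3 with each region counted once, with the host on the same strand, without a tRNA, snRNA or rRNA start within 1000 bp and without genes touching an exon. At 1000 bp there were 7, the added ones being C06A1.9, K11H12.12 and K11H12.13, near regions of their hosts' starts. With each replicate alone the level was the signal of the 132nd region, and the count ran from 1 to 6. Counts of nested genes with a pooled region were 40 at 200 bp (18.5%, against 16.1% of all genes), 108 at 1000 bp (50.0%, against 55.6%), 45 by overlap with the gene (20.8%, against 34.1%) and 41 with the 10000 highest regions (19.0%, against 14.7%). Thus the nested share was above that of all genes at 200 bp and with the highest regions, and below it at 500 bp and at 1000 bp. The share of all genes includes the piRNA genes described above. By overlap the nested share was also lower, but overlap counts the whole span of a gene. The nested genes are at most 325 bp long, so the shares by overlap do not compare like with like. Each replicate alone gave 53 to 59, and for both replicates, then 1 list, 53 to 59. Genes with regions in both replicates numbered 21 at 200 bp (9.72%), 62 at 1000 bp (28.7%) and 23 with the 10000 highest regions (10.6%). The share of all nuclear genes was not computed for these 3 settings, so the difference seen at 500 bp was not checked there. Over 1000 bp from host starts there were 24 (16.1% of 149). Over 1000 bp from every annotated transcript start of the host, 42 genes had a pooled region and 18 had regions in both replicates, with a median of 24.1. The median signal was 28.4 at 200 bp, 25.8 at 1000 bp, 28.4 by overlap, 31.4 with the 10000 highest regions, 28.4 with the host on the same strand, 23.4 over 1000 bp from host starts, 24.8 with each region counted once, 24.5 without regions shared with the host, 23.4 without regions near any of its transcript starts and 24.8 without genes touching an exon; for each replicate alone, on its own scale, it ran from 15.9 to 16.1. Outside coding genes there were 38 at 200 bp and 36 with the 10000 highest regions, and 48 to 50 with each replicate alone. Host starts gave 34 at 200 bp (17.7%, below the nested 18.5%), 139 by overlap of the whole host, 48 with the 10000 highest regions and 55 to 69 with each replicate alone. Counts change by construction with the window, the list or the number of genes, and the cause of other shifts was not tested. Leaving out regions shared with the host or genes touching an exon, and using transcript starts of the host, were added after the data were seen. Read depth, unknown here, limits what a missing region shows. No paired analysis was possible because there is 1 group.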

Other observations

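The B box letters GTTCGANNC were looked up on both strands in every nested gene and the 100 bp before it. They were found at 14 of 216 nested genes (6.48%), against 6 of 216 windows of the same lengths taken 1000 bp past each gene (2.78%). Outside coding genes they were found at 13 of 130, of which 10 had a pooled region, with a median of 35.97. A match is a description of letters, not a promoter. Of the 14, 7 had a pooled region, and 61 of the 202 others did, with a median of 24.8. The median of the 7 was 27.9, but C51F7.3 and C51F7.4 share a region. With that region counted once the median was 24.1, and without it 20.3, both below that of the others. The 7 were C51F7.3 and C51F7.4 (79.98 at their shared region), F55A11.10 (31.4), Y43F8C.22 (27.9), F11A10.9 (20.3), T23G5.7 (16.5) and M106.6 (16.3). In 4 of the 14, a subset chosen after values were seen, the letters lay within the gene on its own strand. Of those 4, C51F7.4 had a region, while Y37E3.21, Y37E3.22 and Y77E11A.21 had none in any list. The letters found at C51F7.3 lie in its upstream 100 bp, which overlaps C51F7.4, so the pair is 1 match.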
